A study of Mus musculus with 18 samples.

Results

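The growth-arrest and stress-response genes described here are Gadd45a, Gadd45b and Gadd45g, Btg1 and Btg2, and Cdkn1a, Mdm2, Ccng1 and Plk2. They are 9 of the 54532 genes in the table of expression values, and all 9 were among the 11084 genes that passed a filter on low values (a mean of at least 1 FPKM over the libraries). FPKM counts sequenced fragments relative to gene length and a measure of library size, so levels of different genes can be set side by side. The genes were chosen by name with earlier results of these data in view. The large falls of Btg2 and Gadd45g from PCM to SCM in control cells were among the values that chose them, and which values chose the other 7 is not recorded. For that reason the control cells' response to the medium is described without a test for all 9 genes, and Btg2 and Gadd45g are described without a test wherever control libraries enter. The tests that remain may still use values that chose some of the other 7.

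p53 is a transcription factor that is switched on by DNA damage and other stress and that holds the cell cycle through its target genes. Cdkn1a encodes p21, an inhibitor of the cyclin-dependent kinases that drive the cycle. Mdm2 encodes the ubiquitin ligase that degrades p53 and is itself a p53 target, which closes a feedback loop. Ccng1 encodes cyclin G1, a p53 target that recruits a phosphatase to Mdm2. Plk2 encodes a Polo-family kinase of centriole duplication and the stress response. The GADD45 proteins are small acidic proteins that bind p21, PCNA, the Cdk1 kinase and the kinase MEKK4 of the p38 and JNK pathways. Gadd45a is a classical p53 target, and Gadd45b is known as a target of NF-kB and TGF-beta signalling. Btg1 and Btg2 are antiproliferative proteins that bring the CCR4-NOT deadenylase to messenger RNA. Several of these genes are also immediate-early genes, which growth factors and stress induce within minutes.

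KPCA.B cells, which the labels class as high-grade serous ovarian cancer, are a mouse line. As general background on the KPCA model and not from the labels, such lines derive from fallopian tube cells engineered with several alterations, a mutant p53 and overexpressed cyclin E1 and Akt2 among them. Conditioned medium came from cells made senescent with the DNA-crosslinking drug cisplatin (SCM) or from proliferating cells given its solvent DMF (PCM), and each was mixed with an equal part of fresh medium with serum, EGF and an insulin supplement. The recipient cells carried a control hairpin (shControl) or 1 of 2 hairpins against Ndufa5, which encodes a subunit of mitochondrial complex I, named shNdufa5_1 and shNdufa5_2. This gave 6 groups of 3 libraries, 18 in all. All cells were of 1 line, and separate cultures are not stated for the libraries within a group, so the spread behind each p-value may be technical.

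Between 13.8 and 39.0 M (mega) fragments per library could be recovered from the steps of the FPKM values. Ndufa5 ran from 15.2 to 22.1 FPKM in shControl PCM and from 20.9 to 26.2 FPKM in shControl SCM, from 6.23 to 6.85 FPKM in the 6 shNdufa5_1 libraries, and from 14.6 to 20.2 FPKM in the 6 libraries labelled shNdufa5_2. It was at 34.6% of its control level with shNdufa5_1 in PCM and at 28% in SCM. In the libraries labelled shNdufa5_2 it was at 93.4% in PCM (adjusted p = 0.647) and at 73.4% in SCM (adjusted p = 0.0125), so these are called by their label throughout. Keratin genes were abundant (Krt18 at a mean of 665 FPKM, Krt7 at 299 FPKM) and Pax8 was at 10 FPKM, while Epcam was at 0.14 FPKM and Wt1 and Muc16 were listed at 0 in every library. Of 7 immune markers only Cd68 passed the filter, and of 5 endothelial markers only Plvap did, with Itgam and Cd3e at 0 everywhere. Summed endothelial markers ran from 2.2 to 5.78 FPKM in the shNdufa5_1 libraries and up to 10.5 FPKM under the label shNdufa5_2 in SCM. Of 8 fibroblast markers 3 passed the filter, and their sum ran from 2.35 to 7.97 FPKM. Summed immune markers ran from 0.872 to 2.31 FPKM in the shControl PCM and shNdufa5_1 libraries and from 5.92 to 10.3 FPKM in the other groups, and whether these markers have a part in any result was not tested.

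**Figure D1:**
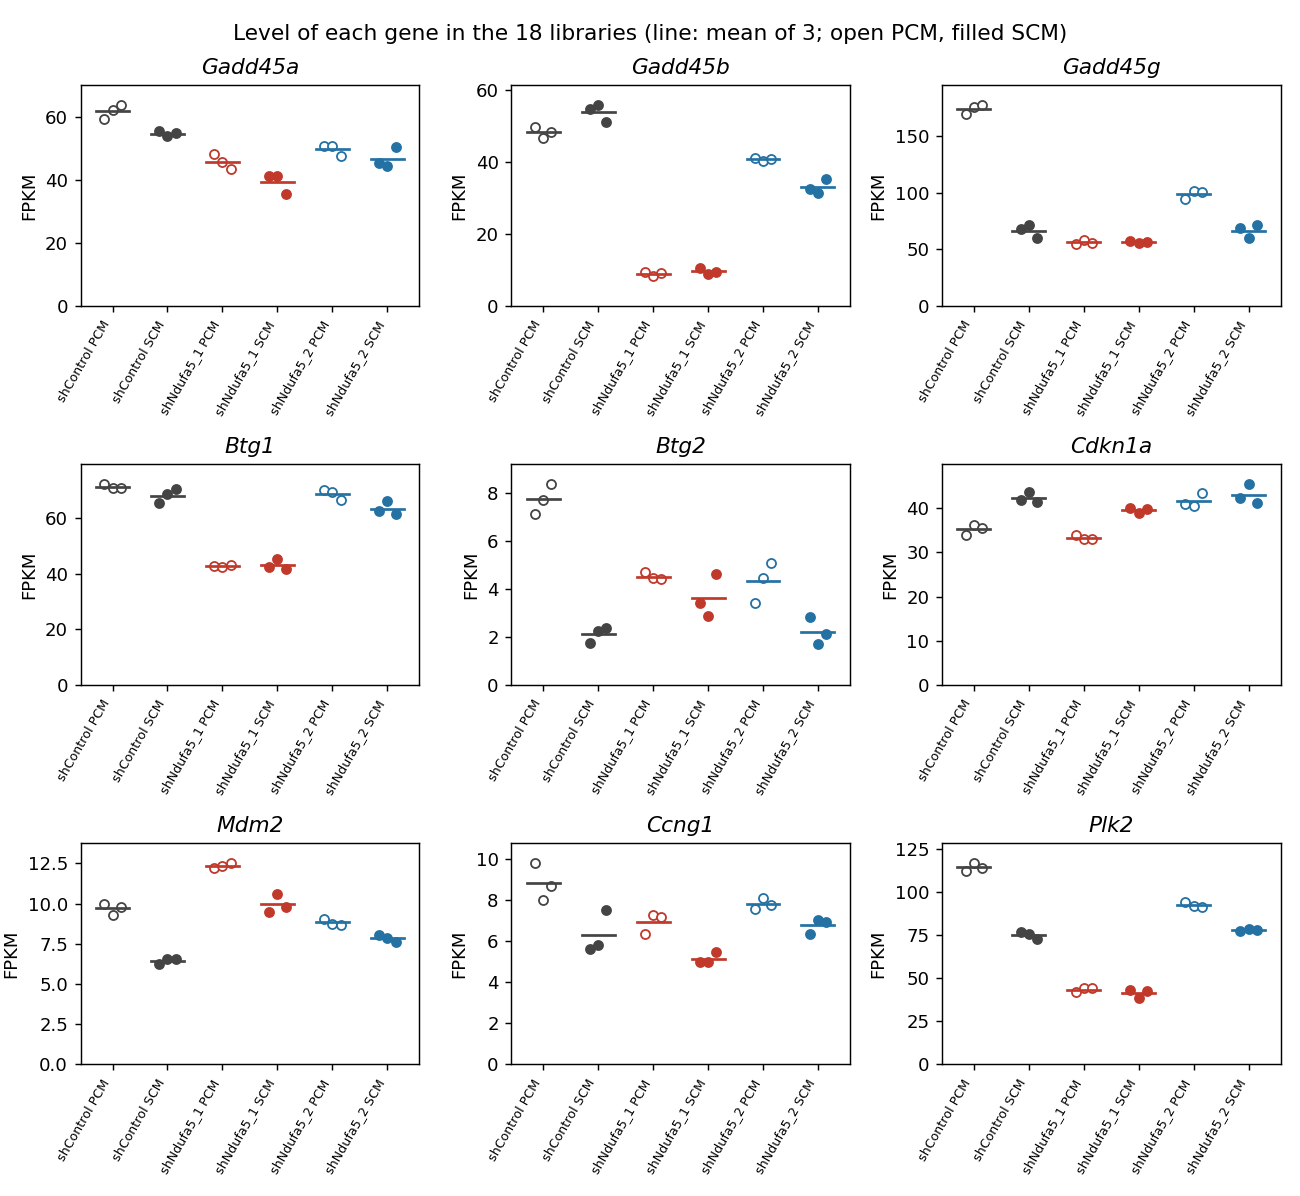
FPKM of each gene (vertical axes, from 0) in the 18 libraries by group (horizontal axes), with a line at the mean of 3, open points for PCM and filled points for SCM. Gadd45b lies between 8.42 and 10.6 FPKM in all 6 shNdufa5_1 libraries and between 31.3 and 55.8 FPKM in the 12 others.

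The levels of the 9 genes spanned a wide range. Gadd45g, Plk2, Btg1, Gadd45a, Gadd45b and Cdkn1a had means over all libraries of 86.6, 74.2, 59.5, 49.8, 32.4 and 39.1 FPKM, and Mdm2, Ccng1 and Btg2 were at 9.19, 6.96 and 4.09 FPKM. Btg2 was the lowest of the 9 in every group. The fewest fragments behind a value were estimated at 64 for Btg2, 211 for Gadd45b and 264 for Ccng1, so Btg2 is measured with the least precision. The highest library was 6.62 times the lowest for Gadd45b, 4.83 times for Btg2 and 1.38 times for Cdkn1a. Trp53, which encodes p53, had a mean of 1.65 FPKM, and Mdm4, which encodes the Mdm2 relative that restrains p53, had a mean of 6.49 FPKM.

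Promoter sequences are shown, as examples, for 3 of the pairs of genes that share a motif. Over the 18 libraries, Pearson's r of their log2(FPKM + 1) values was 0.247 for Btg2 and Plk2, 0.625 for Gadd45b and Gadd45g, and -0.806 for Cdkn1a and Mdm2. The sequences are the 250 bases before the RefSeq start on GRCm38.p6, 5′ to 3′ on the gene's strand. Capitals mark matches to the motifs searched, apart from the CCAAT box, which is left in lower case. All 9 genes had an entry, Cdkn1a with 2 starts. The first pair, Btg2 (chr1:134079156-134079405, minus strand) and Plk2 (chr13:110394794-110395043, plus strand), holds the cyclic AMP response element TGACGTCA.
Btg2: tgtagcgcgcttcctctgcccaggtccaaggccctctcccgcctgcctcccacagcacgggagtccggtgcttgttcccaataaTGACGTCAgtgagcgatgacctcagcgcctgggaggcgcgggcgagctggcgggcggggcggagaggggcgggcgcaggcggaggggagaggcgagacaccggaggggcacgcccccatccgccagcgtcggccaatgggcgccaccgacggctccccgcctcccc
Plk2: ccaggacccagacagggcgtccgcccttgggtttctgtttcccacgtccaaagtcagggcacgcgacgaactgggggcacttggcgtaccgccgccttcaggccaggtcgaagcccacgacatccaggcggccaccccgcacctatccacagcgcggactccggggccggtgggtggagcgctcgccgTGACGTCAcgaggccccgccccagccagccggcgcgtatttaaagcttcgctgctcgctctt
The second pair, Gadd45b (chr10:80929841-80930090, plus strand) and Gadd45g (chr13:51846425-51846674, plus strand), holds the E-box CACGTG followed by the TATA box TATAAA.
Gadd45b: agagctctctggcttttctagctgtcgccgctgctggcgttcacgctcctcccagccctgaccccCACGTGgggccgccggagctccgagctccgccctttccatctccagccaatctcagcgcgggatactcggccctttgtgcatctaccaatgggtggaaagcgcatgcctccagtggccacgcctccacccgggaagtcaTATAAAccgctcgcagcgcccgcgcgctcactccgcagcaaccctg
Gadd45g: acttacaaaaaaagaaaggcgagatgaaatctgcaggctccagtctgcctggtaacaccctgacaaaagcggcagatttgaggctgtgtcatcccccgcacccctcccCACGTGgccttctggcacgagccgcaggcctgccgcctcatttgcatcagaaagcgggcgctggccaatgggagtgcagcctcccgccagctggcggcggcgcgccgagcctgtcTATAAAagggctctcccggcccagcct
Cdkn1a, at its upstream start (chr17:29090729-29090978, plus strand), and Mdm2 (chr10:117710759-117711008, minus strand) hold decamers of the p53 binding element. The first capitals in Cdkn1a are a match to the NF-kB motif.
Cdkn1a: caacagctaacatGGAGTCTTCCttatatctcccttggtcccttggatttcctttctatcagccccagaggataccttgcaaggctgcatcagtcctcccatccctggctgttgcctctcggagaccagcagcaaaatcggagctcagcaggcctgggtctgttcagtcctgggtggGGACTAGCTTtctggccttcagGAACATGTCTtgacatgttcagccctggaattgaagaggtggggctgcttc
Mdm2: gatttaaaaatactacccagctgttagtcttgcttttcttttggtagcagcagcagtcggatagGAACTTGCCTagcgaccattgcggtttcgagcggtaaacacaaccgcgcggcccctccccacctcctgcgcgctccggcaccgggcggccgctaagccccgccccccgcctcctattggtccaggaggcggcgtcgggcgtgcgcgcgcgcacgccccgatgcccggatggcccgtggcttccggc

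Motifs were searched on both strands over 300 bases, from 250 before to 50 after the start, in these genes and in 32851 RefSeq promoters. TGACGTCA was in 2 of the 9 genes, 166 bases before the start in Btg2 and 62 bases before it in Plk2, and in 1.79% of all promoters. The p53 decamer was in 4 of the 9 genes (Cdkn1a, Mdm2, Ccng1 and Gadd45a) and in 8.36% of promoters. Pairs of these genes other than Cdkn1a and Mdm2 had r from -0.328 (Cdkn1a and Ccng1) to 0.649 (Gadd45a and Ccng1). Cdkn1a is counted over both of its starts, and all its matches were at the upstream start. The window of its other start held none of the motifs searched. CACGTG was in 2 of the 9 and in 7.15% of promoters, and TATAAA was in 3 of the 9 (Gadd45b, Gadd45g and Btg1) and in 13.6%. Btg1 had an r of 0.979 with Gadd45b and of 0.671 with Gadd45g. Whether a shared motif goes with likeness of levels was not tested. CCAAT was in 7 of the 9 and in 37.4% of promoters. The NF-kB motif was in Cdkn1a and in 11.2% of promoters. The AP-1 motif TGANTCA (7.81% of promoters) and the CArG box (1.63%) were in none of the 9 windows. None of the capitals overlapped another motif, and a match is a description of letters, not a bound site.

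Positions of the genes are from GENCODE on GRCm38. Gadd45b (chr10:80930073-80932204, plus strand, 1589 exonic bases) had the widest range of the 9. In shControl cells it was at 49.6, 46.6 and 48.3 FPKM in PCM and at 54.6, 55.8 and 51.2 FPKM in SCM. In shNdufa5_1 cells it was at 9.43, 8.42 and 9.13 FPKM in PCM and at 10.6, 8.86 and 9.49 FPKM in SCM. In the libraries labelled shNdufa5_2 it was at 41.1, 40.3 and 40.8 FPKM in PCM and at 32.4, 31.3 and 35.3 FPKM in SCM. The 6 groups separated without overlap except the pair of shNdufa5_1 groups. Gadd45b fell to 18.7% of control with shNdufa5_1 in PCM, a log2 difference of -2.30 ± 0.0589 (SE, n = 3 against 3, adjusted p = 2.76e-13), and to 17.9% in SCM (-2.37, adjusted p = 1.67e-13). These differences, like all others tested, are on the log2(FPKM + 1) scale and come from limma with Benjamini-Hochberg adjustment over all 11084 genes. In the libraries labelled shNdufa5_2 it fell to 84.5% in PCM (-0.24, adjusted p = 0.00524) and to 61.3% in SCM (-0.69, adjusted p = 8.79e-07). These comparisons use control libraries that also entered the choice of the genes.

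The response of Gadd45b to SCM differed between the hairpins. It fell in the libraries labelled shNdufa5_2, by 0.30 on the log2 scale (adjusted p = 0.00214), while in shNdufa5_1 cells the log2 difference was 0.09 (95% interval -0.036 to 0.215, adjusted p = 0.241). The difference between these responses was -0.39 (adjusted p = 0.00427), and it was -0.21 (adjusted p = 0.108) once a trend with GC content and gene length was removed. In shControl cells the SCM libraries were all higher, at 112% of PCM, but this direction turned under 3 other scalings (log2 differences of -0.098 by quantile normalization, -0.089 by library totals and -0.26 with the GC and length trend removed).

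Gadd45g (chr13:51846678-51848468, plus strand, 1173 exonic bases) was the most abundant of the 9 in shControl cells in PCM, at 169, 175 and 178 FPKM, and was at 68.4, 71.6 and 60.1 FPKM in SCM. That fall, to 38.3%, is one of the values that chose the genes and is given as a description. In shNdufa5_1 cells the levels were 54.9, 58.5 and 55.6 FPKM in PCM and 57.2, 55.5 and 56.9 FPKM in SCM, below every control library. With the label shNdufa5_2 they were 94.2, 102 and 101 FPKM in PCM and 68.5, 60.4 and 71.2 FPKM in SCM. The PCM groups thus stood apart from each other, and the SCM groups of shControl and of the label shNdufa5_2 overlapped.

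The tests on Gadd45g that use no control library gave a fall from PCM to SCM under the label shNdufa5_2, by 0.57 on the log2 scale (adjusted p = 1.57e-05). No such fall was measured in shNdufa5_1 cells, where the log2 difference was 0.0051 (95% interval -0.127 to 0.137, adjusted p = 0.958), a value that became -0.24 (adjusted p = 0.00383) with the GC and length trend removed. The difference between the responses was -0.57 (adjusted p = 0.000376). Gadd45g was also higher under the label shNdufa5_2 than with shNdufa5_1, by 0.80 in PCM (adjusted p = 2.14e-08) and by 0.23 in SCM (adjusted p = 0.00505). The SCM difference was not called under quantile normalization (0.11, adjusted p = 0.111), by library totals (0.14, adjusted p = 0.0565) or with the GC and length trend removed (0.014, adjusted p = 0.841). Against shControl, Gadd45g stood at 32.3% with shNdufa5_1 in PCM and at 84.7% in SCM, and at 56.8% and 100% under the label shNdufa5_2, all given without a test.

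Gadd45a (chr6:67035096-67037457, minus strand, 1764 exonic bases) varied least of the GADD45 genes. In shControl cells it was at 59.5, 62.3 and 64.0 FPKM in PCM and at 55.6, 54.0 and 55.0 FPKM in SCM. It was at 48.3, 45.9 and 43.6 FPKM with shNdufa5_1 in PCM and at 41.4, 41.4 and 35.5 FPKM in SCM. Libraries labelled shNdufa5_2 held 51.1, 50.8 and 47.7 FPKM in PCM and 45.7, 44.5 and 50.6 FPKM in SCM. Every library with an Ndufa5 hairpin was below every control library of either medium. Gadd45a fell with shNdufa5_1 by 0.42 in PCM (adjusted p = 2.39e-05) and by 0.47 in SCM (adjusted p = 5.95e-06), and under the label shNdufa5_2 by 0.31 (adjusted p = 0.000959) and by 0.22 (adjusted p = 0.00957). Both SCM calls were lost with the GC and length trend removed (-0.11, adjusted p = 0.0961, and -0.034, adjusted p = 0.698). The second was also lost by quantile normalization (-0.076, adjusted p = 0.375) and by library totals (-0.13, adjusted p = 0.108). From PCM to SCM it fell in shNdufa5_1 cells by 0.22 (adjusted p = 0.00893), and without replicate 3 of shNdufa5_1 in SCM by 0.14 (adjusted p = 0.05). With the GC and length trend removed this difference was -0.44 (adjusted p = 3e-05), and the difference in response between the hairpins, 0.13 (adjusted p = 0.306), became 0.32 (adjusted p = 0.0161). Between the hairpins Gadd45a was higher under the label shNdufa5_2 in SCM by 0.25 (adjusted p = 0.00272), a call lost with the trend removed (0.079, adjusted p = 0.243), and in PCM the difference was 0.12 (adjusted p = 0.101), which turned to a called -0.24 (adjusted p = 0.00167) with it removed.

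Btg1 (chr10:96617006-96622809, plus strand, 5276 exonic bases) followed shNdufa5_1 and, in the deposited values, changed little with the medium. In shControl cells its log2 difference from PCM to SCM ran from -0.37 to -0.021 over the alternatives run. Its levels were 72.1, 70.6 and 70.9 FPKM in shControl PCM and 65.2, 68.6 and 70.3 FPKM in shControl SCM. With shNdufa5_1 they were 42.9, 42.3 and 43.2 FPKM in PCM and 42.4, 45.1 and 41.5 FPKM in SCM. Those labelled shNdufa5_2 had 69.9, 69.3 and 66.5 FPKM in PCM and 62.7, 65.9 and 61.5 FPKM in SCM. All 6 shNdufa5_1 libraries lay below the 12 others. Btg1 fell with shNdufa5_1 to 60.1% of control in PCM (-0.72 on the log2 scale, adjusted p = 5.19e-10) and to 63.2% in SCM (-0.65, adjusted p = 7.93e-10). For Btg1 under the label shNdufa5_2 the log2 difference was -0.054 in PCM (adjusted p = 0.281) and -0.10 in SCM (adjusted p = 0.0486). The PCM value was called by quantile normalization (-0.18, adjusted p = 0.00334) and by library totals (-0.15, adjusted p = 0.00668). The SCM value held its call in 2 of 6 fits that each left out a library, with adjusted p up to 0.169, and was 0.057 (adjusted p = 0.325) under quantile normalization and -0.0055 (adjusted p = 0.93) by library totals. It was lost without replicate 2 (-0.095, adjusted p = 0.118) or 3 (-0.078, adjusted p = 0.169) of shControl in SCM and without replicate 1 (-0.094, adjusted p = 0.119) or 3 (-0.080, adjusted p = 0.166) of the label shNdufa5_2 in SCM.

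From PCM to SCM, Btg1 moved by 0.0064 on the log2 scale in shNdufa5_1 cells (95% interval -0.073 to 0.086, adjusted p = 0.91). In the libraries labelled shNdufa5_2 it fell by 0.11 (adjusted p = 0.0409), and the call was lost with the GC and length trend removed (-0.074, adjusted p = 0.174), without replicate 1 (-0.099, adjusted p = 0.129) or 2 (-0.10, adjusted p = 0.112) in PCM and without replicate 1 (-0.10, adjusted p = 0.108) or 3 (-0.092, adjusted p = 0.146) in SCM.

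Btg2 (chr1:134075170-134079120, minus strand, 2743 exonic bases) was low and had its highest values in shControl cells in PCM, at 7.11, 7.69 and 8.35 FPKM, and its lowest mean in shControl cells in SCM, at 1.74, 2.27 and 2.36 FPKM. This fall to 27.5% is among the values that chose the genes. With shNdufa5_1 it was at 4.69, 4.44 and 4.40 FPKM in PCM and at 3.42, 2.88 and 4.60 FPKM in SCM. Libraries labelled shNdufa5_2 held 3.41, 4.44 and 5.09 FPKM in PCM and 2.83, 1.73 and 2.11 FPKM in SCM. Within PCM both hairpin groups lay below all control libraries, and within SCM the shNdufa5_1 libraries lay above all control libraries, at 171% of the control mean, with no test for the reason given. Btg2 fell from PCM to SCM under the label shNdufa5_2, to 51.5% (-0.72, adjusted p = 0.00255). In shNdufa5_1 cells the log2 difference was -0.27 (95% interval -0.58 to 0.048, adjusted p = 0.162), and without replicate 3 of shNdufa5_1 in SCM it was -0.41 (adjusted p = 0.0403). The responses of the hairpins were not shown to differ (-0.46, adjusted p = 0.133). Within SCM, Btg2 was lower under the label shNdufa5_2 than with shNdufa5_1 by 0.52 (adjusted p = 0.00732), and within PCM the difference was -0.064 (adjusted p = 0.724).

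**Figure D2:**
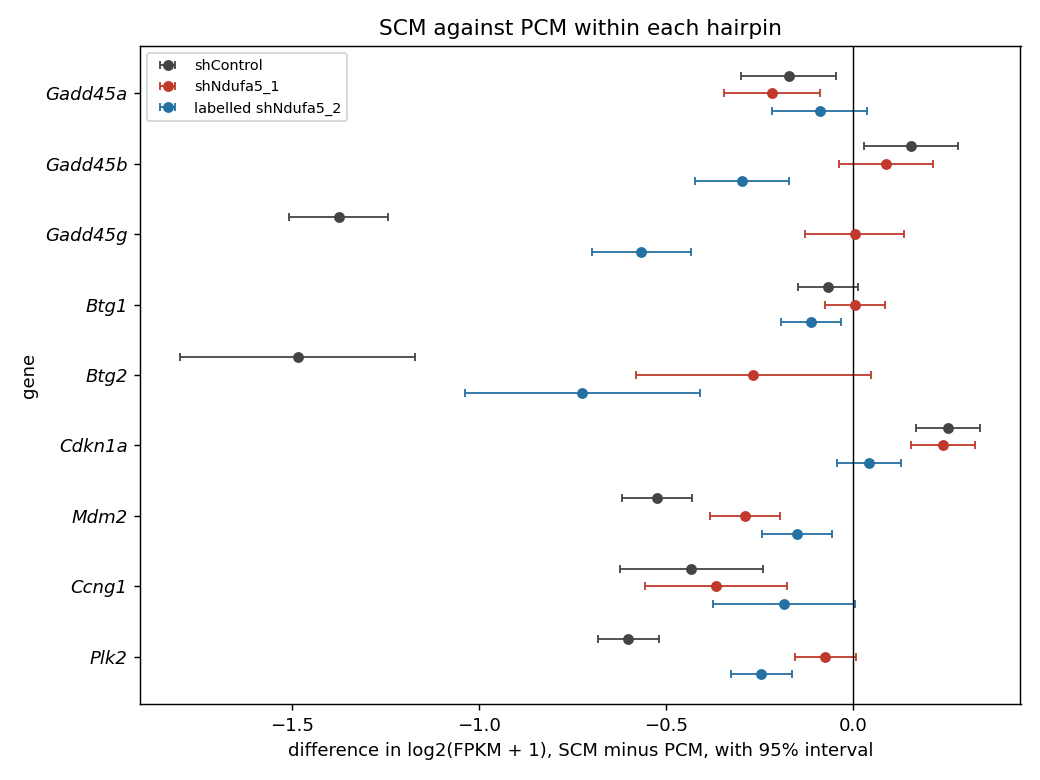
Difference in log2(FPKM + 1) between SCM and PCM (horizontal axis, SCM minus PCM) for each gene, as point and 95% interval from the limma fit, within shControl (grey), shNdufa5_1 (red) and the label shNdufa5_2 (blue). Gadd45g and Btg2 lie at -1.38 and -1.49 in shControl cells, at 0.0051 and -0.27 in shNdufa5_1 cells and at -0.57 and -0.72 under the label shNdufa5_2.

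Cdkn1a (chr17:29090976-29100727, plus strand, 3553 exonic bases) had the narrowest range. It was at 33.9, 36.2 and 35.5 FPKM in shControl PCM and at 41.7, 43.5 and 41.4 FPKM in shControl SCM. With shNdufa5_1 it was at 34.0, 32.9 and 33.1 FPKM in PCM and at 39.9, 38.9 and 39.9 FPKM in SCM. The label shNdufa5_2 had levels of 40.9, 40.4 and 43.4 FPKM in PCM and 42.2, 45.4 and 41.0 FPKM in SCM. The PCM groups of shControl and shNdufa5_1 were thus the low ones, below all other libraries. Cdkn1a rose from PCM to SCM in shNdufa5_1 cells by 0.24 on the log2 scale (adjusted p = 0.000227), whereas for the label shNdufa5_2 the difference was 0.044 (95% interval -0.042 to 0.13, adjusted p = 0.478). The difference between these responses was -0.20 (adjusted p = 0.0228). It was -0.066 (adjusted p = 0.5) with the GC and length trend removed, and it missed the threshold without replicate 1 of shNdufa5_1 in SCM (-0.19, adjusted p = 0.052) and without replicate 3 of the label shNdufa5_2 in PCM (-0.17, adjusted p = 0.0601) or SCM (-0.17, adjusted p = 0.0574).

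Against shControl, Cdkn1a rose in PCM under the label shNdufa5_2 by 0.23 (adjusted p = 0.000371), and the other 3 comparisons were not called, with log2 differences of -0.076 (shNdufa5_1, PCM, adjusted p = 0.127), -0.090 (shNdufa5_1, SCM, adjusted p = 0.0655) and 0.022 (label shNdufa5_2, SCM, adjusted p = 0.714). The second of these turned to 0.095 (adjusted p = 0.0489) by library totals. The third was called higher under all 3 other scalings, at 0.12 by quantile normalization (adjusted p = 0.0346), 0.12 by library totals (adjusted p = 0.0328) and 0.13 with the GC and length trend removed (adjusted p = 0.0301). The hairpins differed by 0.31 in PCM (adjusted p = 6.76e-06), higher under the label shNdufa5_2, and by 0.11 in SCM (adjusted p = 0.0284). The SCM difference was lost by library totals (0.022, adjusted p = 0.671), by quantile normalization (0.039, adjusted p = 0.431), with the GC and length trend removed (0.089, adjusted p = 0.0704) and without replicate 2 (0.10, adjusted p = 0.0868) or 3 (0.12, adjusted p = 0.0503) of shNdufa5_1 or replicate 2 of the label shNdufa5_2 (0.072, adjusted p = 0.154).

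Of the 7 genes tested against shControl, Mdm2 (chr10:117688875-117710758, minus strand, 5083 exonic bases) was the one that rose with shNdufa5_1. It was at 9.99, 9.32 and 9.81 FPKM in shControl PCM and at 6.25, 6.55 and 6.53 FPKM in shControl SCM. With shNdufa5_1 it was at 12.2, 12.3 and 12.5 FPKM in PCM and at 9.49, 10.6 and 9.80 FPKM in SCM. Levels under the label shNdufa5_2 were 9.04, 8.76 and 8.67 FPKM in PCM and 8.06, 7.88 and 7.63 FPKM in SCM. SCM libraries lay below PCM libraries under every hairpin. Mdm2 rose with shNdufa5_1 by 0.32 on the log2 scale in PCM (adjusted p = 1.65e-05) and by 0.56 in SCM (adjusted p = 2.66e-08). Under the label shNdufa5_2 it rose in SCM by 0.25 (adjusted p = 0.000469) and fell in PCM by 0.12 (adjusted p = 0.0371). That PCM call was lost by quantile normalization (-0.10, adjusted p = 0.0802), without replicate 1 (-0.10, adjusted p = 0.129) or 3 (-0.12, adjusted p = 0.0992) of shControl and without replicate 2 (-0.12, adjusted p = 0.0893) or 3 (-0.11, adjusted p = 0.106) of the label shNdufa5_2.

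From PCM to SCM, Mdm2 fell in shNdufa5_1 cells by 0.29 (adjusted p = 9.54e-05) and under the label shNdufa5_2 by 0.15 (adjusted p = 0.022). The second call was lost with the GC and length trend removed (-0.11, adjusted p = 0.089), without replicate 1 in PCM (-0.13, adjusted p = 0.0799) and without replicate 2 (-0.15, adjusted p = 0.0505) or 3 (-0.13, adjusted p = 0.0801) in SCM. The difference between the responses was 0.14 (adjusted p = 0.124), and it was called with the trend removed (0.21, adjusted p = 0.0372). Between the hairpins, Mdm2 was lower under the label shNdufa5_2 by 0.44 in PCM (adjusted p = 3.08e-07) and by 0.30 in SCM (adjusted p = 2.47e-05).

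Ccng1 (chr11:40748552-40755311, minus strand, 3512 exonic bases) was at 9.78, 7.99 and 8.68 FPKM in shControl PCM and at 5.59, 5.80 and 7.53 FPKM in shControl SCM. With shNdufa5_1 it was at 6.37, 7.26 and 7.15 FPKM in PCM and at 5.0, 4.98 and 5.46 FPKM in SCM. Its levels under the label shNdufa5_2 were 7.55, 8.12 and 7.77 FPKM in PCM and 6.33, 7.04 and 6.91 FPKM in SCM. SCM libraries were below PCM libraries under every hairpin. Ccng1 fell from PCM to SCM in shNdufa5_1 cells by 0.37 (adjusted p = 0.00405), whereas for the label shNdufa5_2 the difference was -0.18 (adjusted p = 0.157). The first call was lost with the GC and length trend removed (-0.14, adjusted p = 0.333). Ccng1 has the lowest exonic GC content of the 9, 37.4%, a value that only 0.8% of the tested genes fall below.

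With shNdufa5_1, Ccng1 fell against shControl by 0.31 in PCM (adjusted p = 0.00918) and by 0.24 in SCM (adjusted p = 0.0299). The PCM call was lost without replicate 1 of shControl (-0.24, adjusted p = 0.0529). The SCM call was lost by library totals (-0.079, adjusted p = 0.466), without replicate 3 of shControl (-0.12, adjusted p = 0.184) and without replicate 1 (-0.22, adjusted p = 0.0793) or 2 (-0.22, adjusted p = 0.0829) of shNdufa5_1. Under the label shNdufa5_2 the differences were -0.15 in PCM (adjusted p = 0.204) and 0.096 in SCM (adjusted p = 0.441), the latter 0.21 (adjusted p = 0.0489) without replicate 3 of shControl. Between the hairpins Ccng1 was higher under the label shNdufa5_2 by 0.34 in SCM (adjusted p = 0.0049). In PCM the difference was 0.15 (adjusted p = 0.146), and it was called with the GC and length trend removed (0.50, adjusted p = 0.000533).

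Plk2 (chr13:110395046-110400844, plus strand, 4491 exonic bases) was at 112, 117 and 114 FPKM in shControl PCM and at 76.9, 75.7 and 72.8 FPKM in shControl SCM. With shNdufa5_1 it was at 41.9, 44.2 and 44.4 FPKM in PCM and at 43.0, 38.4 and 42.6 FPKM in SCM. Plk2 under the label shNdufa5_2 was at 94.2, 92.1 and 91.6 FPKM in PCM and at 77.6, 78.5 and 77.9 FPKM in SCM. The shNdufa5_1 libraries were low in both media, below all 12 others. Plk2 fell with shNdufa5_1 to 38% of control in PCM (-1.38 ± 0.0388 on the log2 scale, SE, n = 3 against 3, adjusted p = 7.25e-13) and to 55% in SCM (-0.85, adjusted p = 5.81e-11). Under the label shNdufa5_2 it fell in PCM by 0.30 (adjusted p = 2.82e-05), and in SCM the difference was 0.054 (adjusted p = 0.306). The SCM difference was called higher by quantile normalization (0.21, adjusted p = 0.00178) and by library totals (0.15, adjusted p = 0.00583).

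The fall of Plk2 from PCM to SCM passed the test under the label shNdufa5_2, at -0.24 (adjusted p = 0.000373). In shNdufa5_1 cells the log2 difference was -0.073 (95% interval -0.156 to 0.0094, adjusted p = 0.143), and it was called by library totals (-0.12, adjusted p = 0.0167) and quantile normalization (-0.16, adjusted p = 0.00526). The difference between the responses, -0.17 (adjusted p = 0.0372), held its call in only 3 of 12 fits that each left out a library, with values from -0.22 to -0.14 and adjusted p up to 0.0974. It was lost on leaving out replicate 1 of shNdufa5_1 in PCM, replicate 1 or 3 of shNdufa5_1 in SCM, or any of the 6 libraries labelled shNdufa5_2. It was also lost by quantile normalization (-0.12, adjusted p = 0.163) and with the GC and length trend removed (-0.11, adjusted p = 0.194).

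The counts of called genes have to be read against a high background, since many genes changed in every comparison. From PCM to SCM, 4 of the 9 genes were called in shNdufa5_1 cells (Cdkn1a higher, Gadd45a, Mdm2 and Ccng1 lower), beside 42.3% of all genes tested. Among libraries labelled shNdufa5_2, 6 of the 9 were called, all lower (Gadd45b, Gadd45g, Btg1, Btg2, Mdm2 and Plk2), beside 22.8% of all genes, and 4 of the 9 were called with the GC and length trend removed. The difference between these responses was called for 4 of the 9, all negative (Gadd45b, Gadd45g, Cdkn1a and Plk2), beside 21% of all genes. With the GC and length trend removed only Gadd45g kept a negative call among them (-0.40, adjusted p = 0.00377), and Gadd45a (0.32, adjusted p = 0.0161) and Mdm2 (0.21, adjusted p = 0.0372) were called positive. In shControl cells 7 of the 9 genes were lower and 2 higher in SCM with no overlap between the groups, beside 66.1% of all genes without overlap and 61.9% called, and nothing is read from this comparison because it entered the choice.

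Against shControl, counts cover the 7 genes other than Btg2 and Gadd45g and share their control libraries with the choice of the genes. With shNdufa5_1, 6 of the 7 were called in PCM (1 higher, 5 lower) beside 52.7% of all genes, and 6 of the 7 in SCM (1 higher, 5 lower) beside 59.8%. Under the label shNdufa5_2, 5 of the 7 were called in PCM (1 higher, 4 lower) beside 35.6% of all genes, and 4 of the 7 in SCM (1 higher, 3 lower) beside 33.9%. That last split was 3 higher and 1 lower by quantile normalization and by library totals, and 2 higher and 2 lower with the GC and length trend removed. Between the hairpins, 6 of the 9 genes were called in PCM (5 higher under the label shNdufa5_2, 1 lower) beside 62.9% of all genes, and 8 of the 9 (6 higher, 2 lower) with the GC and length trend removed. In SCM all 9 were called (7 higher, and Btg2 and Mdm2 lower) beside 53.9%. The SCM count was 7 by quantile normalization and by library totals, without Gadd45g and Cdkn1a, and 6 with the trend removed, without Gadd45a as well. The median log2 difference of the 9 between the hairpins was 0.31 in PCM and 0.25 in SCM, where the medians of all genes were 0.020 and 0.0062. Differences between the hairpins may be among the values that chose the genes, so these counts and medians are descriptions.

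Likeness over the 18 libraries put Gadd45b, Btg1 and Plk2 together. Pearson's r of log2(FPKM + 1) was 0.979 for Gadd45b and Btg1, 0.949 for Btg1 and Plk2, and 0.92 for Gadd45b and Plk2. Gadd45g was nearest to Plk2 (0.838), and Btg2 to Gadd45g (0.693). Cdkn1a and Mdm2, both classical p53 targets, ran opposite to each other (-0.806), as did Gadd45b and Mdm2 (-0.747). Btg1 and Btg2, the close relatives, had an r of -0.0041. These values describe 6 groups of 3 libraries that share hairpin and medium, so the points are not independent.

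**Figure D3:**
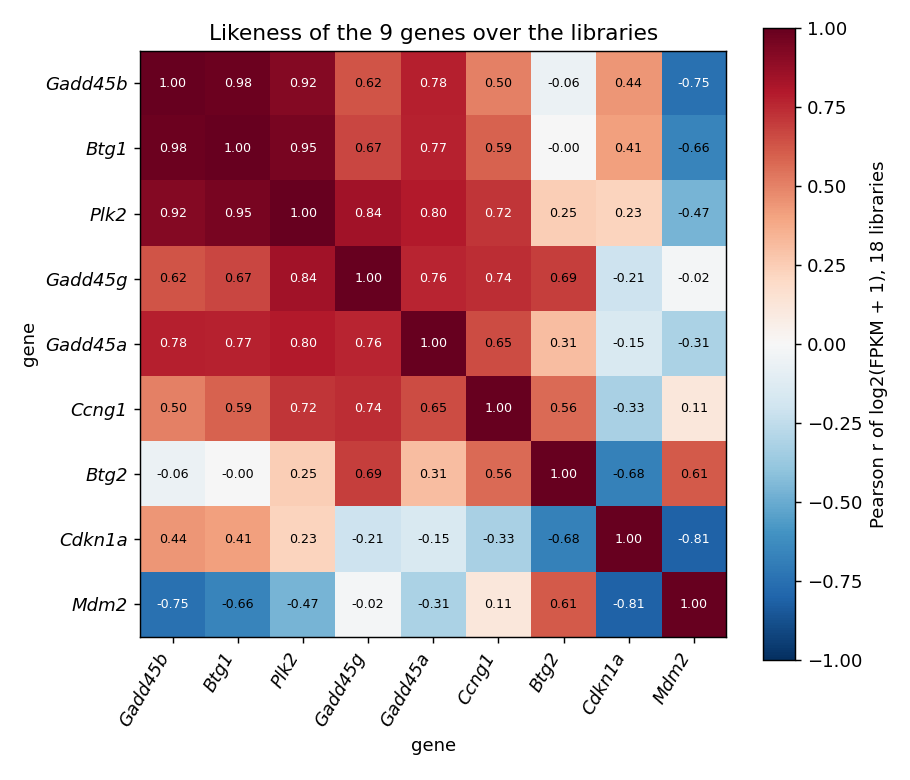
Pearson's r of log2(FPKM + 1) over the 18 libraries for each pair of the 9 genes (both axes), from -1 (blue) to 1 (red). Gadd45b, Btg1 and Plk2 form the block of values at or above 0.92, and Mdm2 has its lowest value with Cdkn1a, -0.806.

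Among all genes tested, those with the highest r to Btg1 were Nfkbia (0.99), which encodes the NF-kB inhibitor I-kappa-B-alpha, Slc35b1 (0.987) and Rhod (0.985). The nearest to Plk2 were Nfkbie (0.986), which encodes another inhibitor of NF-kB, Csrnp1 (0.983) and Pip5k1a (0.983). For Gadd45b they were Zfand3 (0.988), Arl6ip5 (0.986) and Arfip2 (0.986). Gadd45g was nearest to Dusp8 (0.947), a phosphatase of MAP kinases, Afap1l2 (0.945) and Crkl (0.944). For Mdm2 they were Cep192 (0.975), Acp1 (0.973) and Metap2 (0.971), and for Btg2 Cep76 (0.932), Ptpn11 (0.93) and Ncbp1 (0.926). Cdkn1a was nearest to Snrpa1 (0.94), Emp2 (0.935) and Abhd8 (0.934), Ccng1 to Rab30 (0.935), Uhmk1 (0.912) and Serp1 (0.908), and Gadd45a to Chka (0.908), Arfrp1 (0.903) and Stk17b (0.901).

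Other genes of the p53 pathway were counted in 2 lists, targets and regulators. Of 30 other p53 targets 27 were tested. From PCM to SCM, 3 rose and 4 fell in shNdufa5_1 cells, beside 42.3% of all genes called. Under the label shNdufa5_2, 1 rose and 1 fell, beside 22.8%. The median log2 differences of the list were 0.055 and -0.015. With shNdufa5_1, 8 rose and 4 fell in PCM, beside 52.7% of all genes called, and 8 rose and 6 fell in SCM, beside 59.8%. The medians were -0.0031 and 0.067. The medians of this list changed sign between scalings in every one of these comparisons except SCM against PCM in shNdufa5_1 cells (all positive) and under the label shNdufa5_2 (all negative), and in the latter 6 fell and none rose by library totals. The Fas gene, which encodes a death receptor, fell with shNdufa5_1 in PCM by 1.58 on the log2 scale (adjusted p = 8.3e-06), and Perp, which encodes a desmosome protein, rose by 0.67 (adjusted p = 2.2e-05). Of 12 genes for p53 and its regulators 11 were tested. With shNdufa5_1 in PCM 7 rose and 1 fell, beside 52.7% of all genes called. Among the rises were Chek1 (0.62) and Atm (0.47), kinases of the DNA damage checkpoint, and Usp7 (0.43), a deubiquitinase of Mdm2. The median of the list was 0.28, where that of all genes was -0.0058, and 7 rose and 1 fell under each of the other 3 scalings too. In SCM 6 rose and 1 fell, beside 59.8% of all genes, again with Usp7 (0.68), Chek1 (0.65) and Atm (0.54). With the GC and length trend removed 7 rose and 3 fell in SCM. Under the label shNdufa5_2, 1 of these regulators rose and 5 fell in PCM (median -0.0845), beside 35.6% of all genes. In SCM 2 rose and none fell under that label, beside 33.9%. From PCM to SCM in shNdufa5_1 cells 1 rose and 5 fell (median -0.19), beside 42.3%, and none rose and 1 fell with the trend removed.

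Trp53 itself was not called with either hairpin against shControl, with log2 differences of 0.015 (adjusted p = 0.938) and 0.19 (adjusted p = 0.251) for shNdufa5_1 in PCM and SCM. Mdm4 rose with shNdufa5_1 by 0.35 in PCM and by 0.36 in SCM, beside the rises of Mdm2. It fell from PCM to SCM in shNdufa5_1 cells by 0.40 (adjusted p = 4.63e-05), and the difference under the label shNdufa5_2 was 0.088 (adjusted p = 0.289). These responses of Mdm4 differed by 0.49 (adjusted p = 0.000544).

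Among the relatives and partners of the BTG proteins, Tob2 and Btg3 fell from PCM to SCM in both shNdufa5_1 cells (-0.20 and -0.16) and the libraries labelled shNdufa5_2 (-0.27 and -0.26), 2 of the 3 tested of 4 listed. The shares of all genes called were 42.3% and 22.8%. With the GC and length trend removed 1 of the 3 was called lower in shNdufa5_1 cells. Of 9 CCR4-NOT deadenylase genes, 4 rose and none fell with shNdufa5_1 in PCM, beside 52.7% of all genes called. In SCM 8 rose and none fell, beside 59.8%. Cnot6 (0.68 and 0.84) and Cnot1 (0.32 and 0.47) led in PCM and SCM. The medians of this list were 0.14 and 0.34, where those of all genes were -0.0058 and -0.0043, and with the GC and length trend removed they were 0.026 (4 rose, 1 fell) and 0.20 (6 rose, none fell). Under the label shNdufa5_2, 1 rose and 3 fell in PCM, beside 35.6% of all genes, and 2 rose and none fell with the trend removed. In SCM 4 rose and none fell under that label, beside 33.9%. Of 9 genes for GADD45 partners, 2 rose and 2 fell with shNdufa5_1 in PCM, beside 52.7% of all genes called. In SCM 5 rose and none fell, beside 59.8%. In SCM 8 rose and none fell by quantile normalization and by library totals, and 4 rose and 2 fell with the GC and length trend removed. Under the label shNdufa5_2, 1 partner rose and none fell in PCM, beside 35.6% of all genes. In SCM none rose and 3 fell under that label, beside 33.9%, and 1 rose and 1 fell by quantile normalization. Of 4 tested of 5 listed Polo kinases and cyclin G2, 3 rose and none fell with shNdufa5_1 in PCM, beside 52.7% of all genes. Among the rises were Plk1 and Plk3 (0.51 and 0.42), where Plk2 fell. Of 6 other cyclin-dependent kinase inhibitors 5 were tested. From PCM to SCM, 3 rose and none fell in shNdufa5_1 cells, beside 42.3% of all genes. The count there was 1 by quantile normalization and with the GC and length trend removed. Under the label shNdufa5_2, 2 rose and none fell, beside 22.8%, and 1 rose by quantile normalization and by library totals. Cdkn2a rose in shNdufa5_1 cells (0.29, adjusted p = 9e-06) and under the label shNdufa5_2 (0.17, adjusted p = 0.0022), where Cdkn1a rose in the first and was not called in the second. Cdkn2a, which encodes p16 and ARF, had a mean of 253 FPKM. Of 7 tested of 9 listed cyclins and kinases that p21 binds, 4 rose and 1 fell with shNdufa5_1 in PCM, beside 52.7% of all genes. Ccna2 was higher by 1.04 and Cdk6 lower by 0.70.

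Of 20 primary response genes, which serum and stress induce rapidly, 12 fell and 4 rose with shNdufa5_1 in PCM, beside 52.7% of all genes. Fosl1 (-1.37), Maff (-1.29) and Jun (-1.25) were the largest, and the median was -0.29. In SCM 7 rose and 7 fell, beside 59.8% of all genes, with Egr1 (1.06) and Egr3 (1.25) higher and Maff (-1.18) lower. The SCM counts were 9 and 7 by quantile normalization, 9 and 6 by library totals, and 10 and 7 with the GC and length trend removed. From PCM to SCM, 6 rose and 6 fell in shNdufa5_1 cells, beside 42.3% of all genes. Under the label shNdufa5_2, 2 rose and 10 fell, among them Jun (-0.62) and Ier2 (-0.61), beside 22.8%. With the trend removed the first of these counts was 3 and 9, and the second stayed at 2 and 10 under each of the 3 other scalings. Of 16 proliferation genes, 14 rose and none fell with shNdufa5_1 in PCM, where 52.7% of all genes were called. Top2a was at 0.82 and Ccnb2 at 0.84, beside the falls of Gadd45b, Btg1 and Plk2, and the median was 0.55. In SCM 11 rose and none fell, beside 59.8% of all genes, with a median of 0.24. With the GC and length trend removed 11 rose and 3 fell there. Under the label shNdufa5_2, 9 rose and 3 fell in PCM, beside 35.6% of all genes, and 1 rose and 10 fell in SCM, beside 33.9%. Its PCM counts were 4 and 4 by library totals and 5 and 4 by quantile normalization. The part of proliferation in the members' differences was not tested, and in such bulk RNA fewer cells of a state and less RNA per cell cannot be told apart.

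Differences across all genes went with GC content to unequal degrees. Spearman's rho between a gene's GC content and its log2 difference was computed over 11074 genes that are not independent. For SCM against PCM it was 0.52 in shControl cells, 0.53 in shNdufa5_1 cells and 0.065 under the label shNdufa5_2. Against shControl it was -0.24 in PCM and -0.36 in SCM for shNdufa5_1, and 0.45 and -0.42 for the label shNdufa5_2. Between the hairpins it was 0.43 in PCM and 0.15 in SCM, and -0.45 for the difference in response. Gadd45a, Gadd45b and Gadd45g are GC-rich, at 58.3%, 57% and 60.6%. The falls of Gadd45b, Btg1 and Plk2 and the rise of Mdm2 with shNdufa5_1, in both media, kept their call in every alternative that was run, the GC and length trend included.

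**Figure D4:**
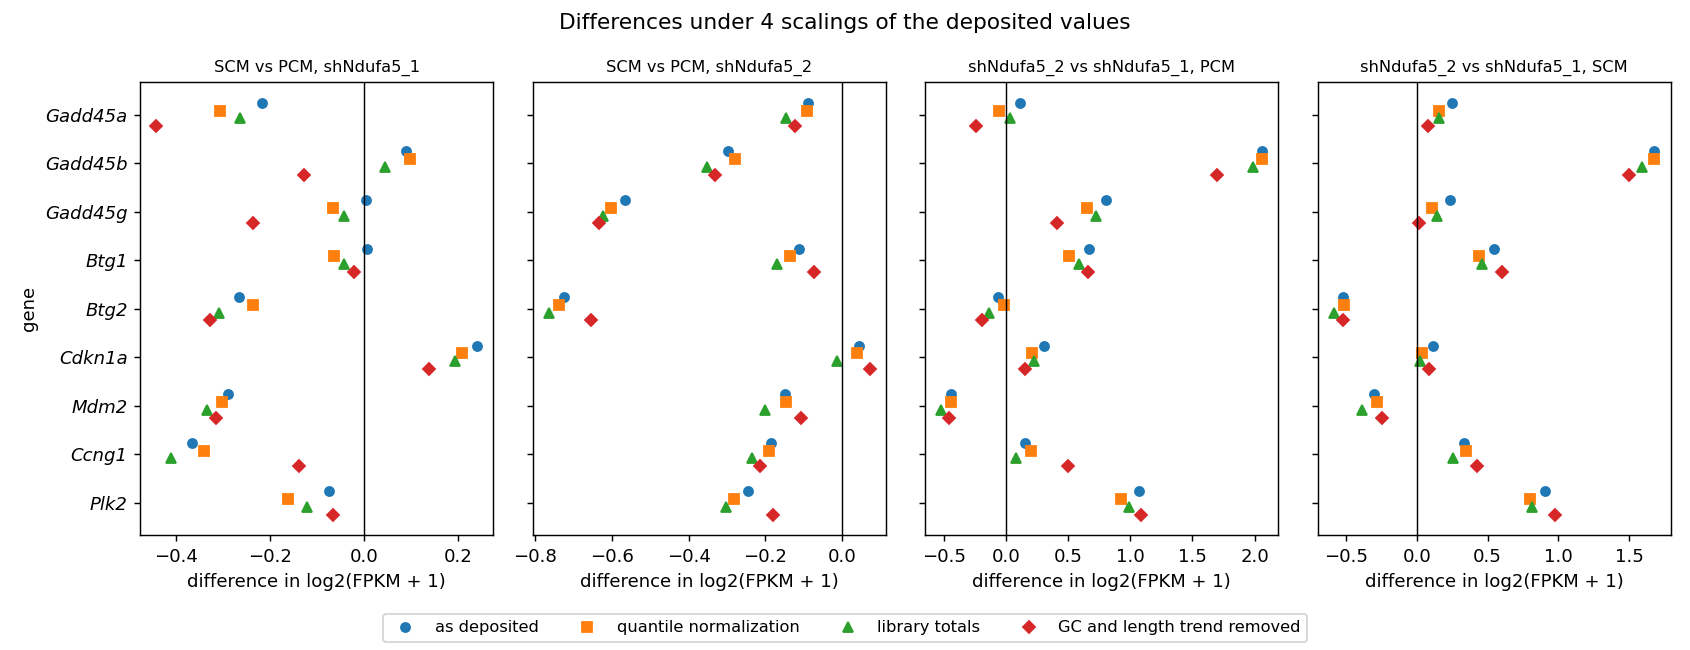
Difference in log2(FPKM + 1) (horizontal axes) for each gene in 4 comparisons, computed from the deposited values (circles), after quantile normalization (squares), by library totals (triangles) and with a GC and length trend removed (diamonds). Gadd45g in shNdufa5_1 cells moves from 0.0051 to -0.24, and Gadd45a between the hairpins in PCM from 0.12 to -0.24, while the differences of Gadd45b, Btg1 and Plk2 between the hairpins stay above 0.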

How the data were processed

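The 18 libraries were prepared from polyadenylated KPCA.B RNA (NEBNext Ultra II), per the labels' protocols. The authors deposited FPKM values per gene, and STAR 2.6.1 and the builds GRCm38 and mm10 stand in the submitters' processing notes. Which counter, strand setting and scaling lie behind them is not given in the sources used here, so genes that overlap another gene or have near-identical copies are uncertain.

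The test ran on log2(FPKM + 1), where changes of low genes come out too small. The filter was a mean of at least 1 FPKM over all libraries. One model with a coefficient per group was fitted with limma 3.58.1 in R 4.3.3, with a trend of the variance with the mean, two-sided contrasts, and Benjamini-Hochberg adjustment over 11084 genes (call under 0.05). The script was tested on simulated data. Gene lengths, GC content and depth came from GENCODE annotation of GRCm38, which held 99.9% of the identifiers. Values of up to 20 fragments were whole within 0.1 fragment for 99.5 to 99.8% of genes with a single transcript and 96.7 to 97.8% of others. No pair of libraries was identical. Promoters came from RefSeq on GRCm38.p6.

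The genes and lists were chosen with earlier results of these data known. All 9 genes are named, and so are the 3 genes most like each of them (named symbols, by Pearson's r) and, from each list, up to 4 called genes with the largest differences and no overlap. Alternatives were the pseudocount 0.1, no filter, a mean of at least 5 FPKM, quantile normalization, library totals, removal of a GC and length trend, a replicate block, only the groups compared, and leaving out each library.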

Additional observations from a re-analysis of the deposited data

Results flagged for a closer look

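The response to SCM differed between the libraries labelled shNdufa5_2 and the shNdufa5_1 libraries for 4 of the 9 genes by the test of the difference itself (limma, adjusted over all genes). On the log2 scale it was -0.39 for Gadd45b (adjusted p = 0.00427), -0.57 for Gadd45g (adjusted p = 0.000376), -0.20 for Cdkn1a (adjusted p = 0.0228) and -0.17 for Plk2 (adjusted p = 0.0372). With a GC and length trend removed the calls of Gadd45b (-0.21, adjusted p = 0.108), Cdkn1a (-0.066, adjusted p = 0.5) and Plk2 (-0.11, adjusted p = 0.194) were lost, and Gadd45a (0.32, adjusted p = 0.0161) and Mdm2 (0.21, adjusted p = 0.0372) were called in the opposite direction.

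In 4 further cases every library of one group moved one way and every library of the other the opposite way, and the difference was not tested. All 4 contain the response of shControl cells to the medium, which entered the choice of the genes, so they are descriptions and support nothing. Gadd45b was higher in SCM in shControl cells and lower under the label shNdufa5_2, a difference of -0.45, but the direction in shControl cells turned under the 3 other scalings (-0.098 by quantile normalization, -0.089 by library totals and -0.26 with the trend removed). Btg2 was below shControl with shNdufa5_1 in PCM and above it in SCM, a difference of 1.22, where the fall in shControl cells (-1.49) is a value that chose Btg2. Under the label shNdufa5_2, Mdm2 was below shControl in PCM and above it in SCM, a difference of 0.38, and so was Plk2, a difference of 0.36.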

How the results depend on the processing

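Depth (64 fragments for the lowest Btg2 value) and 3 libraries a group limit the small differences, and the deposited scaling is not known. The library size recovered from the values was not the fragment total. In replicate 1 of shControl it was 15.96 M against 15.29 M fragments in PCM and 13.45 M against 15.23 M in SCM. The 10 counts of called genes stayed within 1.5 times under every alternative with 1 exception: the count for the difference in response between the hairpins was 2326 and fell to 1272 with the GC and length trend removed. By library totals the median of all genes was -0.205 for SCM against PCM in shControl cells (from 0.0034) and 0.151 for shNdufa5_1 against shControl in SCM (from -0.0043), and calls split 1939 higher and 5411 lower (from 3517 and 3346) and 4841 and 2219 (from 3181 and 3450). The split also moved by library totals for SCM against PCM with shNdufa5_1 (1994 and 2690, from 2493 and 2194) and the label shNdufa5_2 (894 and 2027, from 1302 and 1230), for that label against shControl in PCM (1324 and 2915, from 2138 and 1809) and SCM (2707 and 1266, from 1545 and 2213), and between the hairpins in SCM (2304 and 3795, from 3029 and 2942). Between the hairpins in PCM it was 3088 and 3934 by library totals (from 3654 and 3313). By quantile normalization it was 1750 and 1273 for the label shNdufa5_2 against shControl in SCM, 1649 and 1940 in PCM, and 1300 and 916 for the difference in response. It was 3341 and 2989 there for shNdufa5_1 against shControl in SCM. For SCM against PCM it was 2963 and 3480 in shControl cells and 2247 and 2381 in shNdufa5_1 cells. With a mean of at least 5 FPKM it was 882 and 1139 for the difference in response. Other moves of the split are not listed.

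Directions turned as follows, and the cause was not tested. For SCM against PCM in shControl cells, Gadd45b was at -0.098 by quantile normalization, -0.089 by library totals and -0.26 with the GC and length trend removed. In shNdufa5_1 cells, in the same order, Gadd45g was at -0.065, -0.043 and -0.24 and Btg1 at -0.064, -0.041 and -0.020, and Gadd45b was at -0.13 with the trend removed. Cdkn1a under the label shNdufa5_2 was at -0.013 by library totals. For shNdufa5_1 against shControl in SCM, Gadd45g was at 0.042 by quantile normalization and 0.20 with the trend removed, and Cdkn1a at 0.082, 0.095 and 0.038 in the 3 scalings; in PCM Cdkn1a was at 0.0081 with the trend removed. For the label shNdufa5_2 against shControl, Btg1 in SCM was at 0.057 by quantile normalization, and with the trend removed Ccng1 was at 0.11 in PCM and -0.065 in SCM. Between the hairpins in PCM, Gadd45a was at -0.058 by quantile normalization and -0.24 with the trend removed, and the difference in response of Ccng1 was at -0.075 with the trend removed. Leaving out single libraries gave -0.013 to 0.032 for Gadd45g and -0.028 to 0.031 for Btg1 (SCM against PCM, shNdufa5_1), -0.17 to 0.064 for Btg2 between the hairpins in PCM, and -0.019 to 0.052 for Cdkn1a under the label shNdufa5_2 against shControl in SCM. Some untested differences kept their direction but not their size. From PCM to SCM in shControl cells the alternatives gave 0.0115 to 0.276 for Cdkn1a, -0.65 to -0.042 for Ccng1 and -0.374 to -0.0212 for Btg1.

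What libraries with the same replicate number share beyond it is not known. Correlations of their deviations ran from -0.093 to 0.065, and those of pairs with unlike numbers from -0.097 to 0.096. Replicate 2 of shControl was the deepest library in each medium (33.85 M fragments in PCM and 38.97 M in SCM). With the number as a replicate block 3 calls were lost, Mdm2 under the label shNdufa5_2 against shControl in PCM (-0.12, adjusted p = 0.0543), Btg1 in SCM (-0.10, adjusted p = 0.0545) and the difference in response of Plk2 (-0.17, adjusted p = 0.0547).

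Without the filter the calls of Btg1 under the label shNdufa5_2 (SCM against PCM, and against shControl in SCM), of Ccng1 with shNdufa5_1 in SCM and of the Plk2 difference in response were lost (adjusted p from 0.0671 to 0.0818). Fits of only the groups compared lost these 4, Mdm2 under the label shNdufa5_2 (SCM against PCM, and against shControl in PCM), and Cdkn1a between the hairpins in SCM (adjusted p from 0.0654 to 0.141). With the pseudocount 0.1, Btg1 under the label shNdufa5_2 against shControl in SCM was lost (adjusted p = 0.0502). Calls that held but moved by over 1.5 times were, with the trend removed, Gadd45a with shNdufa5_1 (-0.26) and the label shNdufa5_2 (-0.50) against shControl in PCM, Gadd45b under that label in PCM (-0.43), Ccng1 with shNdufa5_1 in SCM (-0.49), Cdkn1a from PCM to SCM in shNdufa5_1 cells (0.14), and Gadd45g (0.41) and Cdkn1a (0.15) between the hairpins in PCM. By library totals they were Gadd45a with shNdufa5_1 in SCM (-0.28), Gadd45a between the hairpins in SCM (0.15), Btg1 from PCM to SCM under the label shNdufa5_2 (-0.17), and Cdkn1a (0.14) and Mdm2 (-0.21) under that label in PCM. By quantile normalization they were Gadd45a (-0.23) and Btg1 (-0.38) with shNdufa5_1 in SCM and Gadd45a between the hairpins in SCM (0.16).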
